A study of Mus musculus with 6 samples.

Results

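Transcripts for the subunits of the NMDA-type glutamate receptor were compared between heterozygous p300-deficient mice (p300+/-) and wild-type littermates, in RNA of the hippocampus. The genes named were Grin1, Grin2a, Grin2b, Grin2c, Grin2d and Grin3a, and their members on the array were all probe sets that the platform annotation assigns to a single gene among these 6. This rule found 11 probe sets, of 45037 tested, for 5 genes. Grin2a and Grin2c were read by 1 probe set each, Grin2d by 2, Grin3a by 3 and Grin2b by 4. No probe set was assigned to Grin1 in the annotation used, so Grin1 was not analysed here.

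NMDA receptors are tetrameric cation channels that open when glutamate and a co-agonist, glycine or D-serine, are bound and when depolarisation relieves the block of the pore by magnesium. Each receptor contains GluN1 (Grin1), which binds the co-agonist, together with GluN2 subunits (Grin2a to Grin2d), which bind glutamate and set the kinetics of the channel, or with GluN3 subunits, which bind glycine. Calcium entering through these channels starts the long-lasting changes in synaptic strength that hippocampal learning depends on, and it signals to the transcription factor CREB, for which p300 is a coactivator. GluN2A and GluN2B are the main GluN2 subunits of adult hippocampal principal neurons.

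RNA from the hippocampi of 3-month-old females on a C57BL/6 background was measured on 6 Affymetrix Mouse Genome 430 2.0 arrays. Each array held RNA pooled from 4 animals, and 3 pools of p300+/- and 3 of wild-type mice were described as independent biological replicates, so that 12 animals per genotype entered. The labels name no other allele and no treatment, and they do not say how the p300 allele was made. Individual animals cannot be told apart within a pool, and the number of arrays limited the precision.

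Each deposited value was a log2 intensity relative to the median of that probe set over the 6 arrays. A value of 0 is therefore the middle of the 6 arrays, and the values show differences between arrays but no absolute level. A coarse level class could be read from the numeric grid of the values (log2 level of 2 to 4, 4 to 8 or 8 to 16). Of the subunit probe sets 3 were in the class from 8 to 16, of which 2 read Grin2b and 1 read Grin2c, and the other 8 were in the class from 4 to 8. Different probe sets bind with different strength, so these classes do not rank the subunits.

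Ep300, the gene of p300, was lower in p300+/- pools in its only probe set, at a log2 fold change of -0.66 ± 0.13 (SE; -0.55 without the 2 arrays named next), and its genotypes did not overlap, but it did not pass the test over all probe sets (limma, adjusted p = 0.9999). Of 15 measured markers of hippocampal pyramidal and granule cells, 13 had a probe set in the class from 8 to 16, which held 12748 of the 45037 probe sets. So did 12 of 12 astrocyte, 8 of 9 oligodendrocyte and 2 of 7 cerebellar granule cell markers, so the count does not single out these cells. Array p300+/- 3 and array wild-type 2 stood apart from the others. Their values spread most widely over all probe sets, with an SD of 0.29 and 0.331 against 0.182 to 0.207 in the other 4, and they were more alike to each other (Pearson r = 0.55 over probe sets, which share the centring) than any other 2 arrays. These arrays carry opposite genotype labels, so the fold changes of subunits and named partners are given with and without them.

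No subunit probe set differed between the genotypes past the test, and the values of Grin2a and of 3 of the 4 Grin2b probe sets moved more between pools of a single genotype than between genotypes. The test was limma over all 45037 probe sets, in which 0 passed an adjusted p of 0.05, or 0% of those tested, and 550 (1.22%) had an unadjusted p under 0.05. Among the 11 subunit probe sets 0 passed either threshold, and the adjusted p was 0.9999 for each (limma). Their log2 fold changes, p300+/- minus wild-type, ran from -0.34 to 0.28 with a median of -0.072, beside a median of 0.0057 over all probe sets. Values were lower in p300+/- for 8 probe sets and higher for 3, where 51.7% of all probe sets were higher. Ep300 had the same adjusted p of 0.9999 (limma), so not passing does not show that a subunit was unchanged.

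**Figure D1:**
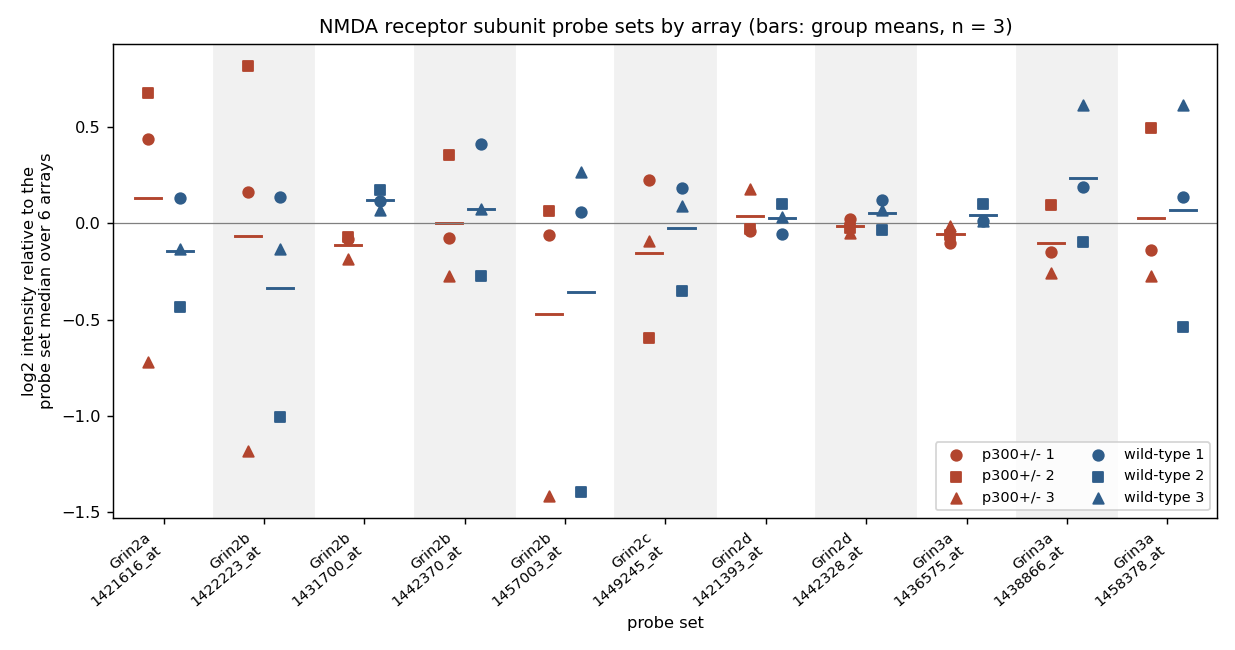
Log2 intensity of the 11 NMDA receptor subunit probe sets (vertical axis, relative to each probe set's median over the 6 arrays) in p300+/- (red) and wild-type (blue) pools, with 1 symbol per replicate number and a bar at each group mean (n = 3). The triangle of p300+/- 3 and the square of wild-type 2 lie lowest in Grin2a 1421616_at, in 3 of the 4 Grin2b probe sets and in 2 others.

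GluN2A, encoded by Grin2a, gives receptors with fast deactivation and becomes prominent as hippocampal synapses mature. Its probe set 1421616_at was at 0.44, 0.68 and -0.72 in p300+/- 1 to 3 and at 0.13, -0.43 and -0.13 in wild-type 1 to 3. The p300+/- pools thus held both the highest and the lowest values, and the genotypes overlapped. The p300+/- mean was 0.13 ± 0.75 and the wild-type mean -0.14 ± 0.28 (SD, n = 3 each). The log2 fold change of 0.28 ± 0.35 (SE) corresponds to 1.21-fold, with a 95% interval from 0.684-fold to 2.14-fold (limma). It rested on single pools: without p300+/- 3 it was 0.70, without p300+/- 2 it was 0.0035, and without both p300+/- 3 and wild-type 2 it was 0.56 (limma, adjusted p = 1).

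GluN2B, encoded by Grin2b, gives receptors with slow deactivation and binds the calcium/calmodulin-dependent kinase CaMKII at its long intracellular tail. Its 4 probe sets did not agree. Probe set 1422223_at was at 0.16, 0.82 and -1.18 in p300+/- 1 to 3 and at 0.13, -1.01 and -0.13 in wild-type 1 to 3. Probe set 1457003_at was at -0.060, 0.064 and -1.42 in p300+/- and at 0.060, -1.40 and 0.27 in wild-type. In both, p300+/- 3 and wild-type 2 lay at least 0.87 below the other 4 arrays, which is a larger gap than that between the genotype means.

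The same 2 arrays were lowest, by less, in the Grin2b probe set 1442370_at. It was at -0.076, 0.35 and -0.28 in p300+/- 1 to 3 and at 0.41, -0.27 and 0.076 in wild-type 1 to 3. These 3 probe sets followed each other over the 6 arrays (Pearson r from 0.80 to 0.88, n = 6), but not over the 4 arrays left without p300+/- 3 and wild-type 2 (r from -0.40 to 0.48, n = 4), so the likeness over 6 arrays rests on those 2. The points share their arrays and are no independent readings, and r is given as a description.

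The fourth Grin2b probe set, 1431700_at, had another pattern. It was at -0.083, -0.072 and -0.18 in p300+/- 1 to 3 and at 0.12, 0.17 and 0.072 in wild-type 1 to 3. All p300+/- pools lay below all wild-type pools, and wild-type 2 was the highest array rather than among the lowest. Its r with the other Grin2b probe sets was between -0.037 and 0.18 (n = 6). The log2 fold change was -0.23 ± 0.11 (SE), or 0.851-fold with a 95% interval from 0.716-fold to 1.01-fold, and it did not pass (limma, adjusted p = 0.9999). It ran from -0.26 to -0.20 when any 1 array was left out and was -0.17 without both p300+/- 3 and wild-type 2. Permuting the 3 and 3 arrays gave an exact two-sided p = 0.1, the smallest that this design can give.

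The fold changes of the Grin2b probe sets had both signs. They were 0.27 ± 0.51 (SE) for 1422223_at, -0.072 ± 0.22 for 1442370_at and -0.11 ± 0.53 for 1457003_at, beside the -0.23 of 1431700_at. The first 3 were 0.49, -0.11 and -0.16 without p300+/- 3 and wild-type 2. The 95% interval reached from 0.528-fold to 2.75-fold for 1422223_at and from 0.393-fold to 2.17-fold for 1457003_at (limma), so that these 2 probe sets say little about the size of a difference in Grin2b. As a mean over its 4 probe sets Grin2b was at -0.015, 0.29 and -0.76 in p300+/- and at 0.18, -0.63 and 0.070 in wild-type. The resulting difference of -0.038 ± 0.30 (SE) did not pass (limma, adjusted p = 0.9998) and was 0.013 without p300+/- 3 and wild-type 2.

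GluN2C, encoded by Grin2c, gives receptors with weak magnesium block and is known mainly from cerebellar granule cells, thalamus and astrocytes. Its probe set 1449245_at was at 0.22, -0.60 and -0.091 in p300+/- 1 to 3 and at 0.18, -0.35 and 0.091 in wild-type 1 to 3. Here p300+/- 2 was the lowest array and p300+/- 3 was near the middle, so that Grin2c did not follow Grin2a or Grin2b. The log2 fold change was -0.13 ± 0.24 (SE), with a 95% interval from 0.626-fold to 1.34-fold (limma, adjusted p = 0.9999). It was 0.094 without p300+/- 2 and -0.32 without both p300+/- 3 and wild-type 2. Cerebellar granule cell markers (7 of 8 measured) averaged between -0.10 and 0.092 in the 6 arrays and astrocyte markers (12 of 12) between -0.14 and 0.055. In p300+/- 2 these lists averaged -0.035 and -0.013, and their lowest means were those of p300+/- 1 and wild-type 2. Thalamus markers (12 of 12) averaged between -0.080 in wild-type 3 and 0.10 in p300+/- 3, with 0.073 in p300+/- 2. Single markers did not all follow the mean of their list. The part of these cell types and of thalamus in the Grin2c values was not tested.

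GluN2D, encoded by Grin2d, is most abundant early in development and is kept by interneurons in the adult hippocampus. As a mean over its probe sets it varied least of the 5 genes, over a range of 0.093. Probe set 1421393_at was at -0.039, -0.031 and 0.18 in p300+/- 1 to 3 and at -0.055, 0.10 and 0.031 in wild-type 1 to 3. Here p300+/- 3 and wild-type 2 were the highest arrays rather than the lowest, within a range of 0.23 over the 6 arrays. Its other probe set, 1442328_at, ranged over 0.17 and had these 2 arrays lowest. The log2 fold changes were 0.011 ± 0.12 and -0.068 ± 0.11 (SE), of opposite sign, with 95% intervals from 0.831-fold to 1.22-fold and from 0.801-fold to 1.14-fold (limma). These 2 probe sets ran against each other over the arrays (r = -0.65, n = 6). Without p300+/- 3 and wild-type 2 the first changed sign, to -0.023, and the second was -0.096. GABAergic interneuron markers (13 of 13 measured) averaged 0.21 in p300+/- 3, 0.037 in wild-type 2 and between -0.038 and 0.066 in the other 4 arrays. Their part in the Grin2d values was not tested.

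GluN3A, encoded by Grin3a, lowers the calcium permeability of the receptors it joins and is most abundant in the young brain. It was the only subunit read by more than 1 probe set whose fold changes shared a sign, at -0.099 ± 0.11 (SE) for 1436575_at, -0.34 ± 0.20 for 1438866_at and -0.044 ± 0.32 for 1458378_at. None passed (limma, adjusted p = 0.9999). Without p300+/- 3 and wild-type 2 they were -0.093, -0.43 and -0.20. Probe set 1438866_at was at -0.15, 0.095 and -0.26 in p300+/- 1 to 3 and at 0.19, -0.095 and 0.61 in wild-type 1 to 3. Wild-type 3 was the highest array, and without it the fold change was -0.15 in place of -0.34. In 1458378_at wild-type 3 was also highest, at 0.61, and wild-type 2 lowest, at -0.54. The fold change of that probe set was 0.23 without wild-type 3 and -0.35 without wild-type 2. Its sign also reversed without p300+/- 1 (0.039) and without p300+/- 3 (0.11). Over the 6 arrays r was 0.15 between 1436575_at and 1438866_at and -0.35 between 1436575_at and 1458378_at. It was 0.81 between 1438866_at and 1458378_at. Over the 4 arrays without p300+/- 3 and wild-type 2 these r were 0.83, 0.53 and 0.80.

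The Grin3a probe set 1436575_at varied little, over a range of 0.20. It was at -0.10, -0.061 and -0.013 in p300+/- 1 to 3 and at 0.013, 0.098 and 0.013 in wild-type 1 to 3. The p300+/- pools were all below the wild-type pools, by a gap of 0.025 between the nearest arrays, and the exact two-sided permutation p was again 0.1, the smallest possible. As a mean over its probe sets Grin3a was at -0.13, 0.18 and -0.18 in p300+/- and at 0.11, -0.18 and 0.41 in wild-type, and these overlapped. The difference of -0.16 ± 0.17 (SE) did not pass (limma, adjusted p = 0.9998). It ran from -0.31 without wild-type 2 to -0.012 without wild-type 3, and was -0.24 without both p300+/- 3 and wild-type 2.

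**Figure D2:**
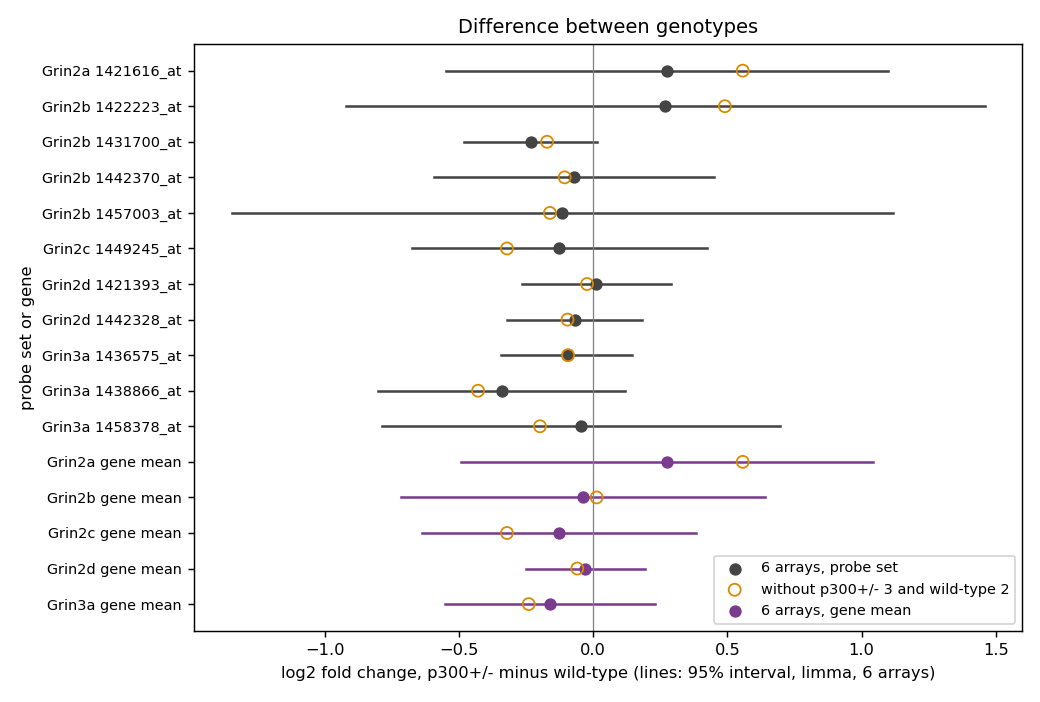
Log2 fold change, p300+/- minus wild-type (horizontal axis), of each subunit probe set (grey) and of each gene's mean over its probe sets (purple), with 95% intervals from limma over 6 arrays. Open circles give the value without p300+/- 3 and wild-type 2, and all intervals include 0.

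The genotypes did not overlap in 2 of the 11 subunit probe sets, Grin2b 1431700_at and Grin3a 1436575_at, both lower in p300+/-. Over all probe sets 5.39% did not overlap, and 2.2% lay lower in every p300+/- pool. With a count of 2 this is a description of these probe sets. In both genes the other probe sets overlapped. Of the 10 pairs of probe sets that read the same gene, 6 had fold changes of the same sign and 4 had opposite signs.

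Arrays p300+/- 3 and wild-type 2 were the lowest 2 arrays in 6 of the 11 subunit probe sets, against 15.8% of all probe sets. The range over the 6 arrays exceeded 1 on the log2 scale in 4 of 11, against 9.49% of all probe sets. These 4 were Grin2a 1421616_at, Grin2b 1422223_at and 1457003_at and Grin3a 1458378_at. The widest, Grin2b 1422223_at, ranged over 2.00 and was wider than 99.3% of all probe sets. The narrowest, Grin2d 1442328_at, ranged over 0.17 and was wider than 3.1%.

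The balance of GluN2A to GluN2B, which rises as hippocampal synapses mature, was followed as the difference between the centred gene means of Grin2a and Grin2b within each array. This difference holds no absolute ratio. It was 0.45, 0.38 and 0.044 in p300+/- 1 to 3 and -0.047, 0.19 and -0.20 in wild-type 1 to 3, with means of 0.29 ± 0.22 and -0.020 ± 0.20 (SD, n = 3). The p300+/- mean was 0.31 ± 0.17 (SE) higher, and the genotypes overlapped in p300+/- 3 and wild-type 2. Without these 2 arrays the difference was 0.54. Since the overlap lay in these arrays, the separation of the remaining pools follows from leaving them out and is no further support. The value depended on which Grin2b probe set was used. Against 1422223_at alone it was 0.0071 ± 0.26 (SE), and against 1431700_at, 1442370_at and 1457003_at it was 0.51, 0.35 and 0.39, with SEs of 0.44, 0.29 and 0.40. The genotypes overlapped against each of these probe sets as well. The difference is given without a test.

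Across the arrays the gene means of Grin2a and Grin2b ran together (r = 0.88, n = 6, and 0.41 over the 4 arrays without p300+/- 3 and wild-type 2), and Grin3a ran with Grin2b (0.72 and 0.30). The mean of Grin2d ran against Grin2a (-0.91 and -0.99) and, less closely, against Grin2b (-0.62 and -0.32), within its narrow range. That mean joins 2 probe sets that ran against each other (r = -0.65, n = 6). Of these, 1442328_at was lowest in p300+/- 3 and wild-type 2, as Grin2a was, so the value describes the mean and not both probe sets. Among 9007 other genes read by at least 2 probe sets, those most like Grin2a were Vps41, a subunit of the HOPS complex of late endosomes and lysosomes, at r = 0.9993, Gid4, a substrate receptor of the GID ubiquitin ligase, at 0.994, and Stx17, the SNARE of autophagosomes, at 0.994. Those most like Grin2b were Etnk1, an ethanolamine kinase, at 0.998, Tmem19 at 0.995 and Brwd1, a bromodomain protein, at 0.994. All r are Pearson correlations over the same 6 arrays, and 184 genes for Grin2a and 509 for Grin2b had r above 0.9, so these names are the top of a long list. Vps41 spanned a narrower range than Grin2a, from -0.21 in p300+/- 3 to 0.14 in p300+/- 2.

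**Figure D3:**
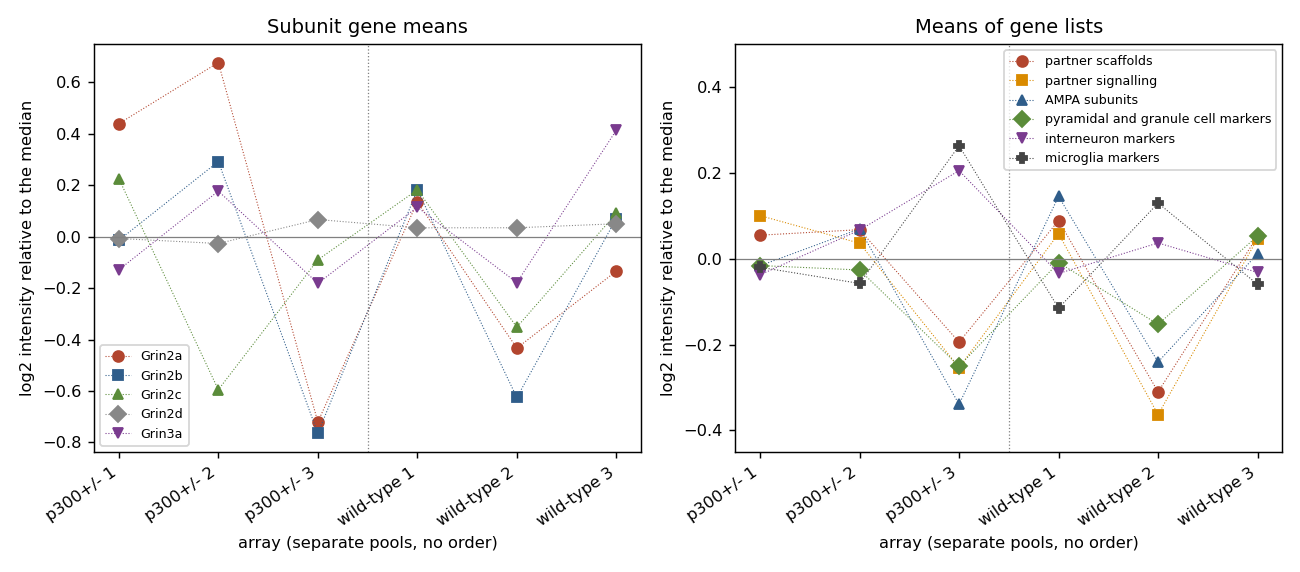
Mean log2 intensity relative to the median (vertical axis) in each of the 6 arrays for the 5 subunit genes (left) and for lists of genes (right); dotted lines only join the symbols of a gene or list. Grin2a, Grin2b and the means of partner scaffolds, signalling partners and AMPA receptor subunits are low in p300+/- 3 and wild-type 2. The mean of the microglia markers is high there, although Cx3cr1 among them (not drawn) is low.

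Partners of the receptor were read as gene means from 4 lists by role, with 53 of 59 genes measured. None of these partners and none of the 5 subunit genes passed in either direction (limma over 18193 genes), where 0% of all gene means passed and 171 (0.94%) had an unadjusted p under 0.05. At that unadjusted threshold there were 1 partner and 0 subunit genes. The partners had higher values in p300+/- for 30 genes and lower for 23, where 57.6% of all gene means were higher, with a median log2 fold change of 0.019, which equals that of all genes to 2 digits. The median was -0.045 without wild-type 2, 0.092 without p300+/- 3 and -0.0038 without both.

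The scaffolds tie the receptor to the postsynaptic density. Of 17 measured, 8 had higher and 9 lower values. Lin7a, a PDZ adaptor that binds the kinesin and scaffold complex carrying the receptor, was at -0.17, -0.066 and -0.063 in p300+/- and at 0.13, 0.12 and 0.15 in wild-type. Its log2 fold change was -0.23 ± 0.097 (SE; limma, adjusted p = 0.9998), and it was the only partner whose genotypes did not overlap and the only one with an unadjusted p under 0.05, against 4.72% of all gene means that did not overlap. Without p300+/- 3 and wild-type 2 it was at -0.26. Dlg4, the gene of the scaffold PSD-95, was at 0.21 ± 0.18 (SE; 0.17 without those arrays), with values from -0.36 in wild-type 3 to 0.30 in wild-type 1.

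Of 15 kinases, phosphatases and other signalling partners, 10 had higher values. The smallest p belonged to the kinase genes Cdk5, at 0.12 ± 0.11 (SE), and Fyn, at -0.10 ± 0.11. They were at 0.075 and -0.10 without p300+/- 3 and wild-type 2. Of 11 genes for the supply of glycine and D-serine, 7 had higher values, with the transporter genes Slc7a10 at 0.27 ± 0.15 and Slc6a9, which encodes the glycine transporter GlyT1, at 0.11 ± 0.12. Without p300+/- 3 and wild-type 2 the value of Slc7a10 was 0.068 and that of Slc6a9 0.018. Of 10 trafficking and auxiliary genes, 5 had higher values, with the adaptor gene Gipc1 at 0.21 ± 0.14 and the SNARE gene Snap25 at -0.15 ± 0.11. Gipc1 was at 0.085 and Snap25 at -0.17 without those 2 arrays. With 57.6% of all gene means higher, none of these counts by role is read as a shift.

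The low values of p300+/- 3 and wild-type 2 were shared unevenly among these roles. Both arrays were the lowest 2 in 9 of 17 scaffolds, 9 of 15 signalling partners, 4 of 10 trafficking genes and 1 of 11 co-agonist genes, against 14.8% of all gene means. Of the subunits it was so in 3 of 5 genes, Grin2a, Grin2b and Grin3a. Among the other ionotropic glutamate receptors it was so in 2 of 4 AMPA receptor subunits and 1 of 5 kainate receptor subunits. The AMPA subunits averaged -0.34 in p300+/- 3 and -0.24 in wild-type 2, and their median log2 fold change was -0.12. That of the kainate subunits was -0.053. These medians were -0.089 and -0.17 without p300+/- 3 and wild-type 2. No subunit of either kind passed (limma), and no difference from the NMDA receptor subunits was tested.

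Means of some cell type marker lists moved with these 2 arrays as well, though not every marker did. Pyramidal and granule cell markers (15 of 16 measured) averaged -0.25 in p300+/- 3 and -0.15 in wild-type 2, and between -0.026 and 0.053 in the other 4. These were the lowest 2 arrays in 6 of the 15 markers, against 14.8% of all gene means. Grp, Neurod6, Bok and Spink8 had positive values in both arrays. Microglia markers (10 of 11) averaged 0.26 in p300+/- 3 and 0.13 in wild-type 2, and between -0.12 and -0.020 in the others. Among them Cx3cr1 went the other way, at -0.82 in p300+/- 3 and -0.65 in wild-type 2. Itgam and Csf1r were at -0.14 and -0.0024 in wild-type 2. Choroid plexus markers (10 of 12) averaged -2.34 in wild-type 2 but 0.26 in p300+/- 3, so that this list was low in only 1 of the 2 arrays. Oligodendrocyte markers (9 of 10) averaged -0.21 in wild-type 2 and 0.087 in p300+/- 3, and thalamus markers (12 of 12) -0.038 and 0.10. As a description without a test of the list, 7 of 9 oligodendrocyte markers had higher values in p300+/-, where 57.6% of all gene means were higher. Mog and Cldn11 were lower, at -0.059 and -0.0087. The median log2 fold change of the list was 0.23 (0.11 without p300+/- 3 and wild-type 2). Mal, Mobp, Ugt8a and Cnp were higher in every p300+/- pool, and in the other markers the genotypes overlapped. These are 4 of 9 genes, against 4.72% of all gene means that did not overlap in either direction. The thalamus markers Calb2 and Prkcd, 2 of 12, and the microglia marker Csf1r, 1 of 10, were also higher in every p300+/- pool. In the remaining cell type marker lists the genotypes overlapped in every gene. Of the 9 oligodendrocyte genes 2 had an unadjusted p under 0.05, as did 1 of 12 thalamus and 1 of 15 pyramidal and granule cell markers. None passed (limma). In bulk tissue fewer cells of a type and less RNA per cell cannot be told apart. The part of these cell types in the subunit values was not tested.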

How the data were processed

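Expression values of 6 arrays were used as deposited. Trizol-extracted, column-cleaned RNA of 4 animals per pool was hybridized, and the authors processed and normalized the data in GeneSpring GX, per the labels' protocols. For the software version, the summarization into probe sets and any filter, details were not given in the sources used here. In the table that was deposited, the log2 values of 45101 probe sets had row medians within 5e-07 of 0. The labels give no base for the logarithm, and 2 was inferred from the binary grid of the values, which also gave the level classes; fold changes depend on this, signs do not.

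After removal of 64 control probe sets, 34945 of 45037 had a single gene in the platform annotation, with symbols updated to RefSeq of GRCm38.p6 for 34741. Each probe set, and each gene's mean over its probe sets (18193 genes), was tested two-sided with lmFit and eBayes of limma 3.58.1 (R 4.3.3), with Benjamini-Hochberg adjustment and a threshold of 0.05, without covariates and without a filter on dim probe sets, since centred values hold no level. The test was tried on simulated data with independent normal noise, which lacked the likeness of p300+/- 3 and wild-type 2. That trial checked the code and not its power in these data. No label says that replicate numbers pair the pools, and the main test assumed no pairing. Deviations from group means correlated at 0.609, -0.23 and -0.468 for numbers 1, 2 and 3. Deviations within a group of 3 pools depend on each other, so these values cannot exclude a pairing. The limma p-values set the difference between genotypes against the spread between pools, with variances moderated over all probe sets or genes.

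All subunit probe sets are named; of the partners, the 2 genes per role with the smallest p; and the 3 genes most like Grin2a and Grin2b. Ep300 served as a check of the labels; which part of the gene its probe set reads is not known here. Members and lists were chosen with earlier results of these data known. Alternatives comprised normalization, centring, moderation, weights, the replicate block, filters, the summary over probe sets and omission of arrays. Figures were drawn with matplotlib 3.10.9.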

Additional observations from a re-analysis of the deposited data

How the results depend on the processing

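No subunit probe set, subunit gene mean or partner passed under the alternatives run for it (limma), among them quantile normalization, median centring, robust or level-class moderation, array weights, the filters, the summary over probe sets, a threshold of 0.1 and omission of each array. With the replicate block 0 of all probe sets and 0 of the subunits passed as well, and the number of probe sets at an unadjusted p under 0.05 was 604 in place of 550. That number was 1632 with array weights, 1151 without wild-type 2 and 1095 without p300+/- 1. Without p300+/- 3 and wild-type 2, a setting chosen after seeing the data, it was 1075.

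Signs changed as follows. With each gene read by its probe set of the highest level class, Grin2d was at 0.011 in place of -0.029. Both Grin2d probe sets are in the class from 4 to 8, and 1421393_at was taken because it is listed first. Without p300+/- 3 and wild-type 2 Grin2d 1421393_at was at -0.023 and the Grin2b gene mean at 0.013. The Grin2a minus Grin2b difference kept its sign and was 0.54 in that setting. With 1 array left out at a time, log2 fold changes ran from -0.17 to 0.83 for 1422223_at, -0.25 to 0.098 for 1442370_at, -0.63 to 0.36 for 1457003_at, -0.32 to 0.094 for Grin2c 1449245_at, -0.061 to 0.049 for 1421393_at, -0.35 to 0.23 for 1458378_at and -0.29 to 0.26 for the Grin2b gene mean, while the Grin2a minus Grin2b difference ran from 0.22 to 0.44. The cause was not tested. Centred values give no signal over background, so how dim probe sets limit these results could not be seen beyond the level classes.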
